A study of Mus musculus with 40 samples.

Results

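The 9 genes described here encode receptors for neurotrophic factors and for the cytokines related to them: Cntfr, Lifr, Il6st and Osmr of the ciliary neurotrophic factor and interleukin 6 family, Gfra1, Gfra2 and Ret of the glial cell line-derived neurotrophic factor (GDNF) family, and Ngfr and Ntrk2 of the neurotrophin family. They were found by symbol among 52636 genes of a count table from mouse brown adipose tissue, and all 9 were among the 17079 genes that passed the filter on low counts. The set was chosen on measured values, because Cntfr and Gfra1 were higher and Ngfr lower in mice given antibodies against the Notch ligands Jag1 and Jag2. Differences between the antibodies are therefore given as a description, with no p-value, and nothing is read from how many of the 9 passed a threshold there. Effects of thyroid hormone and of time were tested, but these comparisons share mice with the antibody comparisons. For Gfra1 with hormone in Jag antibody mice, Cntfr at 5 d in Jag antibody mice and Ngfr at 5 d in control mice, the high group is also the high group of an antibody difference behind the choice, so those changes too are given as a description. Gfra1 with hormone in control mice is given likewise, since both groups are control groups of its antibody differences. So are Cntfr and Ngfr with hormone under either antibody, since the groups compared belong to their antibody differences. Ngfr at 5 d in Jag antibody mice is also a description, since these mice are the low group of its antibody difference.

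Ciliary neurotrophic factor binds CNTFR, which has no signalling domain of its own and joins LIFR and gp130 (the product of Il6st) to activate JAK kinases and STAT3. Oncostatin M signals through OSMR paired with gp130. In the GDNF family the membrane-anchored co-receptors GFRA1, which prefers GDNF, and GFRA2, which prefers neurturin, present the ligand to the tyrosine kinase RET. NGFR (p75) is a low-affinity receptor shared by all neurotrophins and is a known gene of Schwann cells and some perivascular cells, while NTRK2 (TrkB) is the tyrosine kinase receptor of brain-derived neurotrophic factor. Brown fat burns fuel to make heat under the control of sympathetic nerves and thyroid hormone.

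The mice were male C57BL/6 animals of 10 to 14 weeks, per the protocol in the labels, with 40 mice in 8 groups of 5. Control mice received 1 intraperitoneal dose of an isotype antibody against ragweed at 40 mg/kg, and Jag antibody mice received anti-Jag1 with anti-Jag2 at 20 mg/kg each. Brown fat was taken at 15 h, 5 d or 7 d, and additional groups under each antibody, also taken at 7 d, received thyroxine (T4, 1 ug per g body weight) and triiodothyronine (T3, 0.05 ug per g) daily from day 2. The labels do not say whether the mice without hormone received a vehicle, nor do they name collection batches, so time and day of collection cannot be told apart.

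Total counts ran from 12217623 to 36511893 per library. Ucp1, the uncoupling protein that defines brown adipocytes, was present in all 40 libraries at 554 to 21295 CPM, a gene's count scaled to its library's total after TMM normalization. The summed level of 8 skeletal muscle markers differed widely, from 0.878 CPM in a Jag antibody mouse at 5 d to 175926 CPM in a control mouse at 5 d, and the 2 antibody groups did not overlap at 5 d (1018 to 175926 CPM in control mice, 0.878 to 43.9 CPM in Jag antibody mice). In bulk tissue, fewer cells of a type and less RNA per cell cannot be told apart.

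In the GENCODE M21 annotation (GRCm38), Cntfr lies at chr4:41657498-41697089 (minus strand), Lifr at chr15:7090614-7197489 (plus) and Osmr at chr15:6813577-6874969 (minus). Il6st lies at chr13:112464070-112510086 (plus) and Ntrk2 at chr13:58806569-59133970 (plus). Gfra1 lies at chr19:58235604-58455909 (minus), Gfra2 at chr14:70890120-70979838 (plus), Ret at chr6:118151745-118197718 (minus) and Ngfr at chr11:95568818-95587735 (minus). Ntrk2 overlaps 4 annotated genes, 3 of them on the opposite strand, and reads of the overlapping parts could have been counted for either.

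The promoters of 7 of the 9 genes were matched in RefSeq (build GRCm38.p6), as the 250 bases before each annotated start. They were searched on both strands for TGGGAA, the core bound by the Notch effector RBPJ, for AGGTCA, the single-repeat element of nuclear receptors including those for thyroid hormone, and for TTCNNNGAA, the STAT element. Cntfr, Gfra1 and Lifr are shown, the first pair because they gave the highest antibody differences and Lifr because hormone raised it under both antibodies. Each is read 5′ to 3′ on the strand of the gene, with matches in capitals.
Cntfr, chr4:41696038-41696287, minus strand: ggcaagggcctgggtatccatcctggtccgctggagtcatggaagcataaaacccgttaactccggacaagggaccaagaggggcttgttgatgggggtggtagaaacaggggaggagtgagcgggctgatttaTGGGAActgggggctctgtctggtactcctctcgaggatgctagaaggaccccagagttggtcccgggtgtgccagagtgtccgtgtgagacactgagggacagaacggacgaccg
Gfra1, chr19:58455399-58455648, minus strand: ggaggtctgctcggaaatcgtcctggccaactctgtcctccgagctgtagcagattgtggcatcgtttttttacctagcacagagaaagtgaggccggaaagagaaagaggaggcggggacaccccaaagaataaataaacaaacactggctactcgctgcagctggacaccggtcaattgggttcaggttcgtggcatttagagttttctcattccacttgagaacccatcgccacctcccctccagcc
Lifr, chr15:7129322-7129571, plus strand: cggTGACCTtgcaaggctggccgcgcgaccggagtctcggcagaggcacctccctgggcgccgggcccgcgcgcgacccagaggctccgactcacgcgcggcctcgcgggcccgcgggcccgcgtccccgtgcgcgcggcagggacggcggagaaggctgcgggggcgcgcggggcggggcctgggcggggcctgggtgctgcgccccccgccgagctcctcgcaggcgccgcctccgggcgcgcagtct
The table gives 6 start windows for Cntfr. In the one shown TGGGAA stood at position -116 from the start, an overlapping window holds the same letters at -228, another window holds TGGGAA at -73, and the other 3 held no match. Of 2 Lifr windows, the one shown held AGGTCA on the opposite strand at -247 and the other held no match. The Gfra1 window shown held no match, and neither did the windows of Ngfr, Ntrk2, Il6st and Osmr, which are not shown. For Cntfr and Lifr the window shown is one that held a match. Of 32851 windows of the same length, 21.6% held TGGGAA, 14.0% held AGGTCA and 7.02% held TTCNNNGAA. These shares are per window, not per gene with several windows. A match is a description of the letters, not evidence of binding.

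The 9 genes spanned a wide range of levels. Per kilobase of exon, the median over the 40 mice was highest for Il6st, the shared signalling chain, at 13.8 CPM per kb, and for Ntrk2 at 13.2. Lifr had 5.67, Cntfr 5.20 and Osmr 2.41 CPM per kb. Gfra2 (0.700), Gfra1 (0.576), Ret (0.529) and Ngfr (0.434) were low, and 3 counts were the fewest for any of the 9 genes in a library, for Gfra1 in a control mouse at 7 d. Exon lengths are from the GENCODE M21 annotation, since the authors' annotation is not given in the sources used here.

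**Figure D1:**
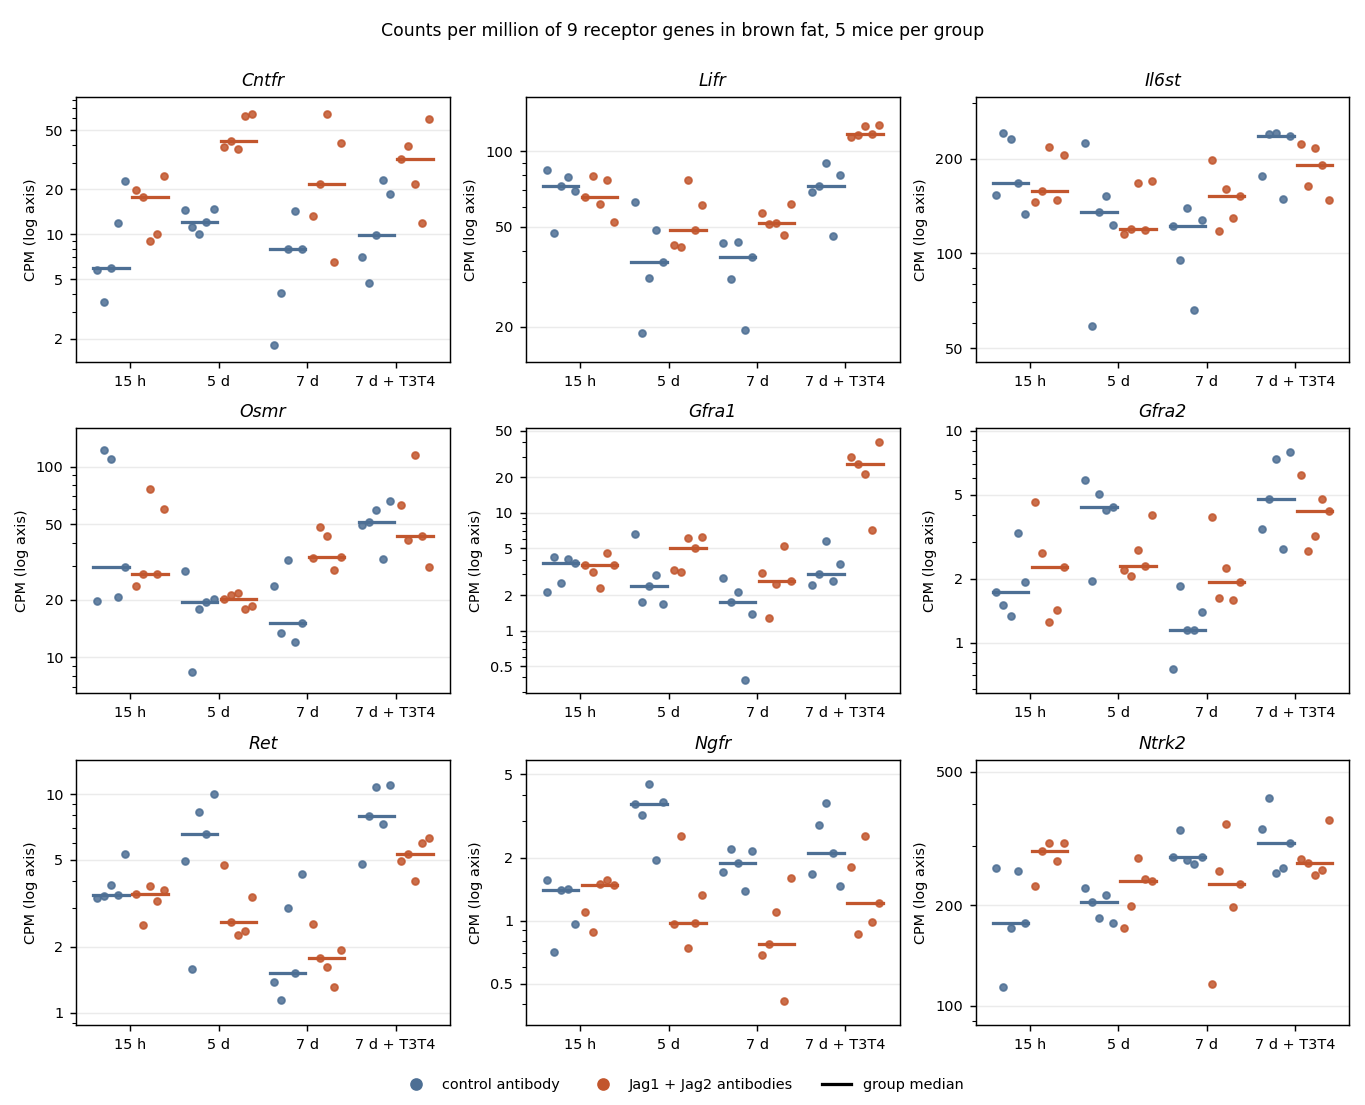
CPM (log axis) of each gene in each mouse by time and hormone, with blue points for control antibody, orange points for Jag antibodies and lines for group medians (5 mice per group). In the Gfra1 panel the Jag antibody mice given hormone, 7.18 to 40.3 CPM, stand above every other mouse of the 40.

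Thyroid hormone raised 6 of the 9 genes in control antibody mice at 7 d (edgeR quasi-likelihood test, Benjamini-Hochberg adjusted p under 0.05), and none fell. Over all genes tested, 43.2% were called in this comparison, 20.3% higher and 22.9% lower. Gfra1 is 1 of the 6, and both of its groups are also control groups of its antibody differences. For 5 of the 9 the groups did not overlap, against 29.8% of all genes. The median log2 fold change was 1.03 for the 9 genes and 0.04 for all genes. That median of the 9 is the value of Gfra1 itself, so it is only a description. In Jag antibody mice 3 of the 9 rose and none fell, against 9.5% called over all genes, 4.29% higher and 5.21% lower. Gfra1 is 1 of those 3, and its high values with hormone are among those that chose the genes. The groups of the 3 did not overlap, against 12.0% of all genes. The medians there were 0.67 and -0.04. That of the 9 is the value of Ngfr, whose mice without hormone are the low group of its antibody difference at 7 d. It too is only a description.

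Gfra1, the GDNF co-receptor, gave the largest hormone change of the 9, in Jag antibody mice. The 5 mice without hormone had 3.10, 1.28, 2.51, 5.24 and 2.62 CPM, and the 5 with hormone had 29.9, 26.1, 21.4, 7.18 and 40.3 CPM. The lowest treated mouse was above the highest untreated one. The log2 difference was 3.08 (SE 0.43, n = 5 and 5), given without a p because these treated mice are also the high group of the antibody difference. In control antibody mice Gfra1 had 2.77, 1.76, 2.11, 0.380 and 1.39 CPM without hormone. With hormone it had 2.42, 3.01, 5.79, 2.61 and 3.71 CPM, and the ranges overlapped. The change was 1.03 (SE 0.41), given without a p because both groups are control groups of the antibody differences. It was past the edgeR threshold in the main fit, but not under 6 of 10 other settings. It also fell short when any of 5 single mice was left out (control mice 2, 4 and 5 without hormone, 3 and 5 with hormone). Gfra1 overlaps Gm16277 on the opposite strand, and whether counting used the strand is not given in the sources used here.

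Ret, the kinase that GFRA1 and GFRA2 activate, rose under both antibodies. In control antibody mice it went from 1.39, 1.14, 3.02, 1.52 and 4.31 CPM to 4.79, 7.91, 10.8, 7.33 and 11 CPM, with no overlap. The log2 fold change was 1.86 (SE 0.34, edgeR adjusted p = 9.86e-05). In Jag antibody mice it went from 1.31 to 2.54 CPM without hormone to 4.02 to 6.28 CPM with it, again without overlap, and the change was 1.53 (SE 0.34, edgeR adjusted p = 0.00396). Gfra2, the neurturin co-receptor, rose in control antibody mice from 0.747, 1.84, 1.14, 1.14 and 1.39 CPM to 3.43, 4.79, 7.35, 2.75 and 7.91 CPM. These ranges did not overlap, and the log2 fold change was 2.07 (SE 0.37, edgeR adjusted p = 6.86e-05). Under Jag antibodies the Gfra2 ranges overlapped and the change of 0.89 (SE 0.35) did not pass the test (edgeR adjusted p = 0.0972). It passed with the muscle score as a covariate (1.07, edgeR adjusted p = 0.0158) and without Jag antibody mouse 6 at 7 d (1.18, edgeR adjusted p = 0.0343).

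Lifr, the leukaemia inhibitory factor receptor, rose under both antibodies. Control antibody mice had 43.2, 31.0, 43.3, 19.4 and 37.7 CPM without hormone and 68.7, 72.8, 89.8, 45.7 and 80.2 CPM with it. Jag antibody mice had 46.5 to 61.7 CPM without hormone and 114 to 127 CPM with it. Neither pair of groups overlapped. The log2 fold changes were 1.03 (SE 0.23, edgeR adjusted p = 0.000647) and 1.16 (SE 0.23, edgeR adjusted p = 0.00134).

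Il6st and Osmr, the chains that form the oncostatin M receptor, rose in control antibody mice. Il6st went from 66.0 to 140 CPM without hormone to 149 to 242 CPM with it (log2 fold change 0.92, SE 0.24, edgeR adjusted p = 0.00251). Osmr went from 12.0 to 32.4 CPM to 32.8 to 65.9 CPM (1.42, SE 0.43, edgeR adjusted p = 0.00800). Neither gene's groups overlapped. Under Jag antibodies both pairs overlapped, with changes of 0.31 (SE 0.24, edgeR adjusted p = 0.405) and 0.65 (SE 0.42, edgeR adjusted p = 0.323). Whether the response of any single gene differed between the antibodies was not tested.

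Ntrk2 did not pass the test for hormone under either antibody. The changes of Cntfr and Ngfr are given as a description, since the groups compared belong to their antibody differences. Neither was past the edgeR threshold in the main fit. For Cntfr the log2 fold changes were 0.83 (SE 0.53) in control and 0.16 (SE 0.52) in Jag antibody mice. The intervals of these changes were wide, -0.26 to 1.91 and -0.90 to 1.21 (95%). In control mice Cntfr was past the threshold under 2 of 10 other settings. Ngfr had 0.32 (SE 0.34) and 0.67 (SE 0.35), and Ntrk2 0.13 (SE 0.21) and 0.29 (SE 0.21).

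Transcript length moved with hormone in control antibody mice. The slope of log2 expression on log2 exon length was -0.54 to -0.06 in the 5 libraries without hormone and 0.04 to 0.25 in the 5 with it. In Jag antibody mice it was -0.16 to 0.03 without hormone and 0.04 to 0.19 with it, again without overlap. Il6st, Lifr, Osmr and Ntrk2 are longer than 91.9% to 99.1% of genes. With length and GC offsets, Il6st had a log2 fold change of 0.35 (edgeR adjusted p = 0.0763) and Osmr 0.84 (edgeR adjusted p = 0.0914), so both calls were lost. Gfra1 in control mice had 0.77 (SE 0.39) and also fell short of the threshold. Lifr kept its call at 0.51 (SE 0.16, edgeR adjusted p = 0.00967). Ntrk2 turned to -0.71 and was called lower (edgeR adjusted p = 0.0269). Gfra2 (2.05) and Ret (1.47) kept their calls in control mice, as did Ret (1.33) and Lifr (0.93) in Jag antibody mice, where Gfra1 had 2.94.

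**Figure D2:**
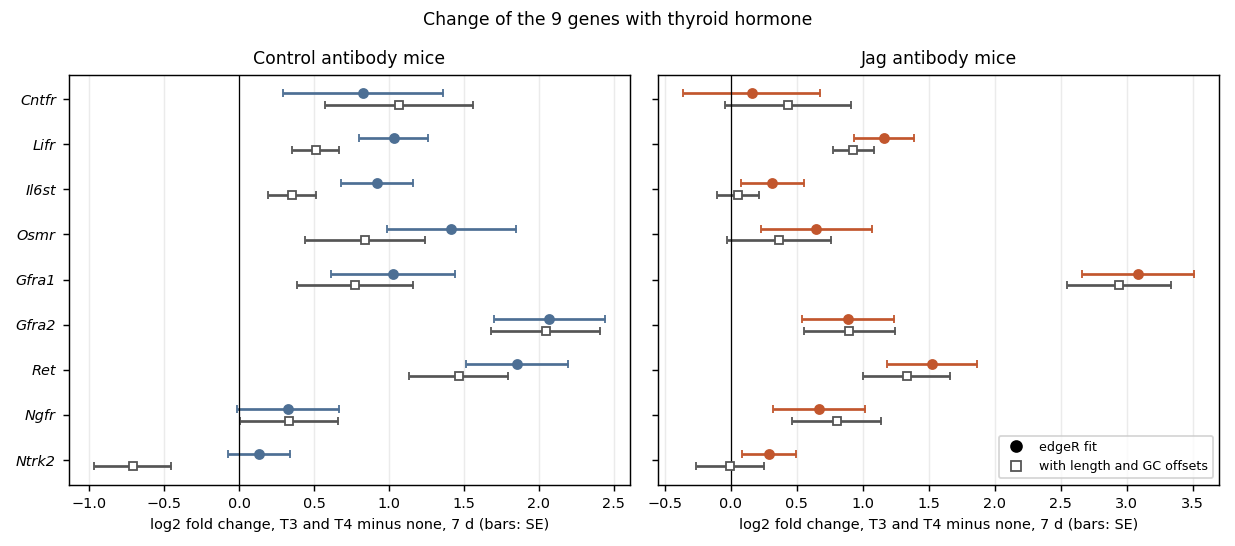
Log2 fold change with thyroid hormone at 7 d (horizontal axis, bars are SE) for the 9 genes in control (left) and Jag antibody mice (right), 5 against 5 mice, with filled circles for the edgeR fit and open squares for the fit with length and GC offsets. Gfra2 and Gfra1 reach 2.07 and 3.08, and Ntrk2 in control mice lies at 0.13 or -0.71 depending on the offsets.

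Marker levels of several cell types moved with hormone in control antibody mice. The summed fibroblast and progenitor markers were 748 to 1262 CPM without hormone and 2339 to 4693 CPM with it, with 6 of 9 markers called higher. Macrophage markers were 155 to 360 and 673 to 1297 CPM, with 7 of 8 called higher. Brown adipocyte markers were 34055 to 74554 and 11206 to 17965 CPM, with 6 of 10 called lower. Schwann cell sums overlapped, at 197 to 491 and 137 to 237 CPM over 13 markers. Of the sympathetic neuron markers, Hand2 was at 0 in all 40 libraries, Dbh in 38, Th in 26 and Slc6a2 in 4. Stmn2 (1.58 to 7.98 CPM) and Slc18a2 (0.380 to 3.06 CPM) were at 0 in none. In Jag antibody mice the sums without and with hormone overlapped, at 542 to 1001 and 932 to 2300 CPM for fibroblast and progenitor markers (4 of 9 called higher), 218 to 899 and 495 to 2066 CPM for macrophage markers (2 of 8 higher) and 16613 to 40098 and 15634 to 21943 CPM for brown adipocyte markers (2 of 10 lower). The part of these cells in the receptor changes was not tested.

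Other genes of the same pathways were taken from lists. Their values are from the main edgeR fit only, so what length and GC offsets would change in them is not shown. Of 20 tested genes of the interleukin 6 family, hormone in control antibody mice raised 9 and lowered 3, against 20.3% raised and 22.9% lowered over all genes. Il6ra, the interleukin 6 receptor, had a log2 fold change of 2.13 (SE 0.42, edgeR adjusted p = 0.000204). The signal transducers Stat3 (1.18) and Jak2 (0.96) also rose. Cntf, the ligand of CNTFR, fell by 1.35 on the log2 scale, the receptor Il11ra1 fell by 0.88, and the cytokine Ctf1 (cardiotrophin 1) fell by 0.73. Under Jag antibodies 1 rose (Ptpn11, a phosphatase of receptor signalling, 0.79) and 1 fell (Il11ra1, -0.997), against 4.29% and 5.21% over all genes. The median of the list was 0.57 in control and 0.32 in Jag antibody mice, beside 0.04 and -0.04 for all genes.

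Of 18 tested genes of the GDNF family, hormone in control antibody mice raised 8 and lowered 2, beside the same 20.3% and 22.9%. Sdc3 (syndecan 3, which also binds GDNF) had 2.36 (SE 0.38, edgeR adjusted p = 2.49e-05), the adaptor Grb10 1.55, and Gfra4, the co-receptor for persephin, 1.47. Dusp6, a phosphatase that limits ERK signalling, fell by 1.01 on the log2 scale. Under Jag antibodies the 2 called genes were Gfra4 at 2.62 (SE 0.45, edgeR adjusted p = 0.000295) and Sdc3 at 1.14, and both rose, as did 4.29% of all genes. The median of the list was 0.76 in control and 0.33 in Jag antibody mice. Gdnf and Nrtn, the ligands of GFRA1 and GFRA2, never exceeded 29 and 62 counts in a library. Of 15 tested neurotrophin genes, 1 rose and none fell in control antibody mice, beside 20.3% and 22.9% of all genes. It was the scaffold Kidins220 (0.57, SE 0.24, edgeR adjusted p = 0.0479). None was called by edgeR in Jag antibody mice, where 2 had an unadjusted p under 0.05 and 9.5% of all genes were called.

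Between antibodies, Cntfr was higher in Jag antibody mice at every time. At 5 d control mice had 14.5, 11.2, 10.0, 12.1 and 14.8 CPM and Jag antibody mice had 38.7, 42.2, 37.6, 62.3 and 64.5 CPM. The groups did not overlap, and the log2 difference was 1.97 (SE 0.54). At 15 h the difference was 0.70 (SE 0.53), at 7 d 2.03 (SE 0.55) and at 7 d with hormone 1.36 (SE 0.53), each with overlapping groups. The mice varied widely at 7 d, from 1.81 to 14.4 CPM under control and 6.49 to 64.0 CPM under Jag antibodies.

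Gfra1 hardly differed at 15 h (0.04, SE 0.40) and was 0.62 (SE 0.40) and 0.77 (SE 0.41) higher on the log2 scale at 5 d and 7 d, with overlapping groups. With hormone the control mice had 2.42 to 5.79 CPM and the Jag antibody mice 7.18 to 40.3 CPM, a log2 difference of 2.83 (SE 0.42) with no overlap. Fibroblast and progenitor marker sums did not overlap there, at 2339 to 4693 CPM in control and 932 to 2300 CPM in Jag antibody mice. Of the 9 markers 2 were called lower and none higher, and the part of these cells was not tested. The antibody difference with hormone minus that without was 2.06 (SE 0.58) for Gfra1. It was -1.18 (SE 0.50) for Gfra2 and between -0.77 and 0.34 for the other genes.

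Ngfr, the neurotrophin receptor p75, was lower in Jag antibody mice from 5 d. Control mice at 5 d had 3.60, 3.21, 4.50, 1.95 and 3.69 CPM and Jag antibody mice 0.963, 2.55, 0.739, 0.975 and 1.33 CPM. All but 1 of the Jag antibody mice were below every control mouse. The log2 differences were 0.11 (SE 0.35) at 15 h, -1.37 (SE 0.34) at 5 d, -1.01 (SE 0.35) at 7 d and -0.67 (SE 0.34) with hormone. Summed mural cell markers were also lower in Jag antibody mice, without overlap at 7 d and with hormone. At 7 d they were 646 to 1152 CPM in control and 224 to 436 CPM in Jag antibody mice. With hormone they were 620 to 927 and 250 to 406 CPM. At 5 d they overlapped, at 374 to 1024 and 268 to 409 CPM. Of 10 mural markers, 4, 4 and 3 were called lower at 5 d, 7 d and with hormone, and none higher. Schwann cell sums overlapped at every time. Sympathetic neuron sums, of 10 markers, were 5.88 to 10.9 CPM in control and 3.05 to 5.82 CPM in Jag antibody mice at 5 d. The part of these cell types in the Ngfr level was not tested.

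Among the other genes, Ret was lower in Jag antibody mice at 5 d by a log2 difference of -1.02 (SE 0.33), with 1.58 to 9.98 CPM in control and 2.26 to 4.76 CPM in Jag antibody mice. Lifr was higher without overlap at 7 d (0.62, SE 0.23) and with hormone (0.74, SE 0.23). Osmr and Gfra2 were 0.95 (SE 0.43) and 0.86 (SE 0.37) higher at 7 d with overlapping groups. Il6st differed by at most 0.46 and Ntrk2 by at most 0.53 on the log2 scale. The numbers of the 9 past the edgeR threshold, which rest on the values that chose the genes, were 0 at 15 h, 3 at 5 d (Cntfr, Ret and Ngfr), 1 at 7 d (Cntfr) and 1 with hormone (Gfra1). Over all genes 1.14%, 8.02%, 2.5% and 1.14% were called. Groups did not overlap for 1 of the 9 at 5 d (4.94% of all genes), 1 at 7 d (3.31%) and 2 with hormone (6.59%). With the muscle score as a covariate, Gfra2 at 5 d turned from -0.69 to 0.13. Under that covariate Ngfr and Ret at 5 d fell short of the threshold, as they did with only the groups compared. Ret also fell short with no filter, in the limma fit on log2(FPKM + 0.1) and when any of 7 single mice was left out. Cntfr at 5 d fell short with no filter and when any of 3 single mice was left out.

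**Figure D3:**
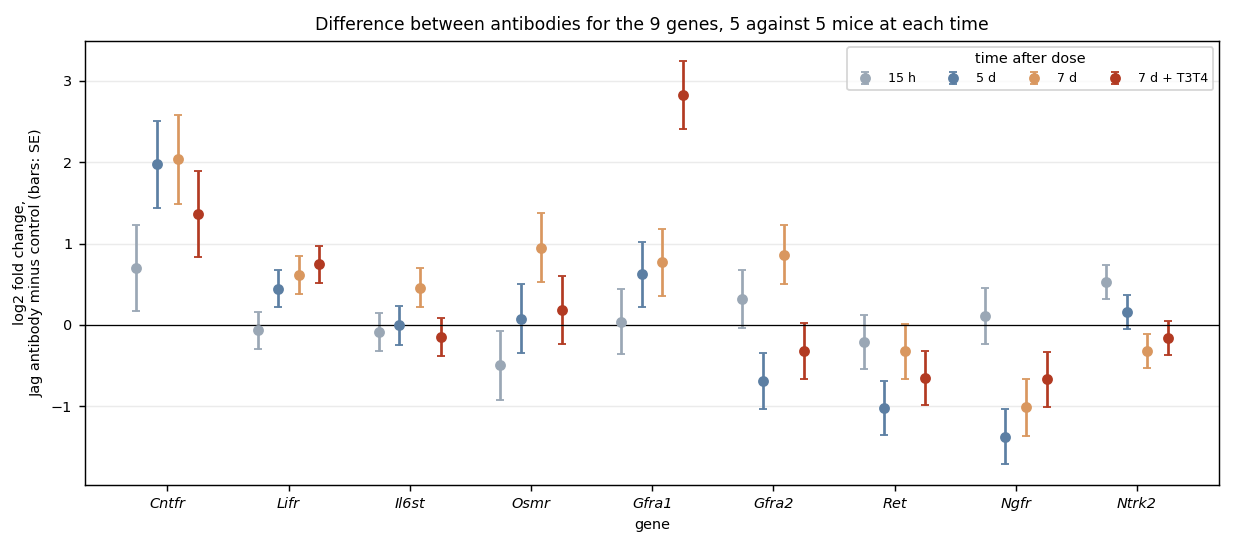
Log2 fold change, Jag antibodies minus control (vertical axis, bars are SE), for each gene at 15 h, 5 d, 7 d and 7 d with hormone, 5 against 5 mice. Cntfr lies above 0 at all 4, Gfra1 reaches 2.83 with hormone, and Ngfr lies below 0 from 5 d.

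In control antibody mice the share of the 9 genes called over time was near that of all genes. At 5 d against 15 h, 4 of 9 were called, Ngfr included, against 36.4% of all genes. Ngfr had 0.709 to 1.57 CPM at 15 h and 1.95 to 4.50 CPM at 5 d, without overlap, as in 10.4% of all genes. Its log2 difference was 1.48 (SE 0.35), a description because these 5 d mice are also the high group of its antibody difference. Gfra2 rose by 1.13 (SE 0.35, edgeR adjusted p = 0.0134). Lifr fell by 0.83 (SE 0.23, edgeR adjusted p = 0.00609) and Osmr by 1.68 (SE 0.43, edgeR adjusted p = 0.00366) on the log2 scale. The groups of Gfra2, Lifr and Osmr overlapped. Osmr had 8.40 to 28.3 CPM at 5 d, and at 15 h control mice 2 and 3 had 122 and 110 CPM while the others had at most 29.9 CPM. With length and GC offsets the calls of Lifr (-0.32, edgeR adjusted p = 0.126) and Gfra2 (0.88, edgeR adjusted p = 0.0576) were lost, and with the muscle covariate those of Osmr and Gfra2. In a fit of only these 10 mice no gene at all was called by edgeR, with 5270 of 15305 at an unadjusted p under 0.05, 4 of the 9 among them.

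At 7 d against 15 h in control antibody mice, 4 of 9 were called, against 45.1% of all genes, and 2 did not overlap (Lifr and Ntrk2), against 25.6%. Lifr fell by 1.01 (SE 0.23, edgeR adjusted p = 0.000689), Osmr by 1.64 (SE 0.43, edgeR adjusted p = 0.00242) and Il6st by 0.75 (SE 0.24, edgeR adjusted p = 0.0107) on the log2 scale. Ntrk2 rose by 0.56 (SE 0.21, edgeR adjusted p = 0.0272). At 15 h the control mice were uneven for Osmr, with 19.8, 122, 110, 20.6 and 29.9 CPM. Macrophage marker sums did not overlap, at 400 to 3393 CPM at 15 h and 155 to 360 CPM at 7 d, and their part was not tested. The Ntrk2 call was lost without any of 4 single control mice (2, 3 and 5 at 15 h, 2 at 7 d), and the Il6st call without mouse 4 at 7 d or with length and GC offsets (-0.35, edgeR adjusted p = 0.0792).

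In Jag antibody mice Cntfr was higher at 5 d than at 15 h, where it had 20.0, 17.7, 9.04, 10.1 and 24.5 CPM, and the groups did not overlap. The log2 difference was 1.59 (SE 0.53), a description since these 5 d mice are also the high group of its antibody difference. Cntfr was the 1 gene of the 9 past the threshold there, against 14.5% of all genes, and fell short of it without any single mouse other than mouse 10 at 15 h or mouse 8 at 5 d. None of the other 8 was called, though Osmr did not overlap (13.6% of all genes). Ngfr had a log2 difference of -0.00 (SE 0.34) at 5 d. It is a description, since these 5 d mice are the low group of an antibody difference behind the choice. The difference between antibodies in this change was not tested. At 7 d against 15 h none of the 9 was called by edgeR, against 18.3% of all genes. There 1 of the 9 had an unadjusted p under 0.05 (Ret, -0.86, SE 0.34), and DESeq2 called none.

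**Figure D4:**
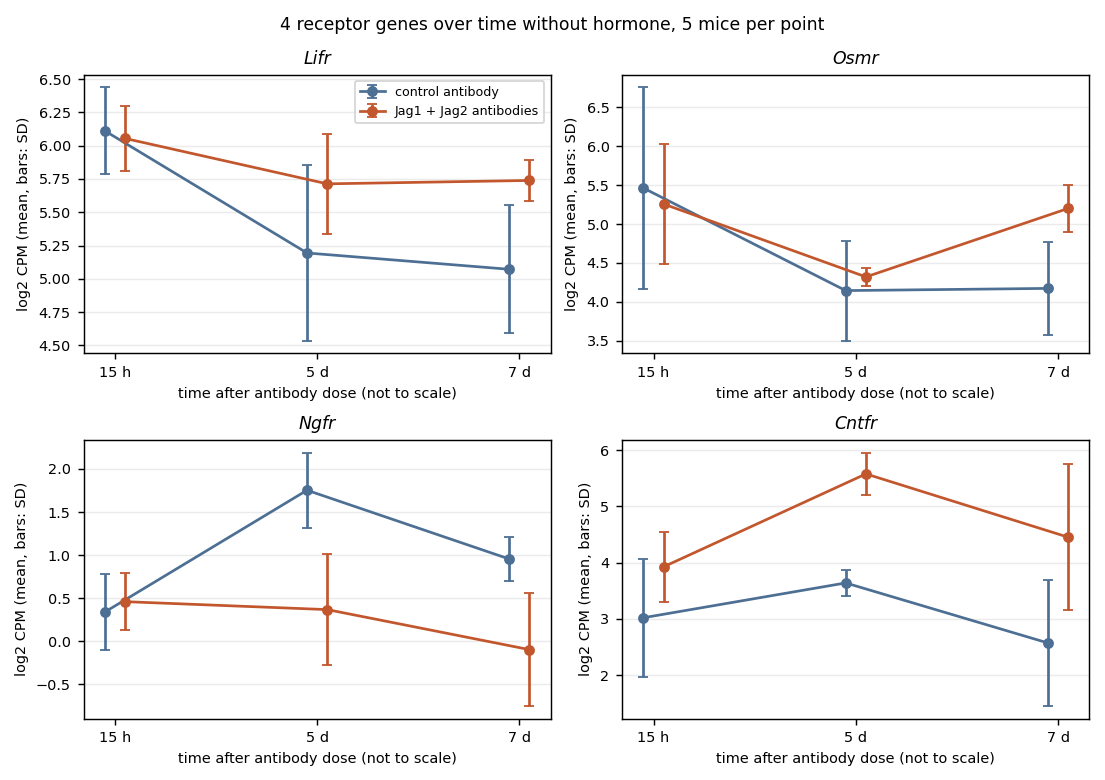
Mean log2 CPM (vertical axis, bars are SD, 5 mice per point) of Lifr, Osmr, Ngfr and Cntfr at 15 h, 5 d and 7 d without hormone, blue for control and orange for Jag antibodies. In control mice Lifr and Osmr decline from 15 h, and Ngfr is highest at 5 d at 1.75.

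Ordered by mean log2 CPM, the 4 Jag antibody groups were the highest for Cntfr, from 5.58 (SD 0.38) at 5 d to 3.93 (SD 0.63) at 15 h, and each group overlapped the next. For Gfra1 the Jag antibody mice with hormone (4.45, SD 0.95) stood clear of the next group, Jag antibody mice at 5 d (2.22, SD 0.47), and the remaining neighbours overlapped. For Lifr the Jag antibody mice with hormone (6.90, SD 0.07) stood clear of the control mice with hormone (6.13, SD 0.37). For Ngfr the control mice at 5 d were highest (1.75, SD 0.44) and the Jag antibody mice at 7 d lowest (-0.10, SD 0.65), with every neighbour overlapping.

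Genes with the most similar pattern were found by Pearson r of log2 CPM over the 40 mice, which share libraries and treatments. For Cntfr they were Sgk2 (r = 0.83), Fbxo21 (0.81) and Slc25a42 (0.78). For Gfra1 they were Papss2 (0.87), the pseudogene Glud-ps (0.85), whose reads may be shared with its parent gene, and Serinc3 (0.81). For Ngfr they were Vtn (0.71), Gpr153 (0.69) and Col6a2 (0.67). After group means were removed, the values for the Ngfr genes were 0.24, 0.22 and 0.26, while Sgk2 and Papss2 kept 0.71 and 0.75. Among the 9 genes themselves, Il6st and Osmr (0.70) and Lifr and Il6st (0.63) had the highest within-group r.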

How the data were processed

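Brown adipose tissue RNA of 40 mice was read as single-end 50 bp reads, per the labels' protocols. The submitters' processing notes name GSNAP and limma, with no role. The build, annotation, counting program and use of strand are not given in the sources used here. The authors deposited whole-number counts per Ensembl gene for 52636 genes, which were the main data, and FPKM values for the same mice, which were used for alternatives only. Columns were matched to mice through the labels' descriptions, and gene symbols, lengths and positions were taken from GENCODE M21 (GRCm38).

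The test was that of edgeR 4.0.16 (R 4.3.3): filterByExpr over the 8 groups left 17079 genes, with TMM scaling, 1 mean per group and the robust quasi-likelihood F test, Benjamini-Hochberg adjusted over all genes at 0.05. Standard errors follow from the F statistic. Log2 CPM used a prior count of 2. Alternatives were DESeq2 1.42.0, RLE size factors, no filter, only the groups compared, a muscle marker covariate, limma 3.58.1 on log2(FPKM + 1) and log2(FPKM + 0.1), length and GC offsets, a replicate block and leaving out each mouse. On simulated counts the fit recovered almost all of the larger planted changes and missed most of the smaller ones, so a gene that was not called is not shown to be unchanged.

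The 9 genes and all lists were chosen with earlier results of these data known. Named beside them are, from each pathway list, those called with hormone that changed most, at most 3 higher and 3 lower, at a mean log2 CPM of at least 1, and the 3 genes most correlated with each of Cntfr, Gfra1 and Ngfr. Same-numbered mice are not stated to be litter mates. In the main fit the spread between mice of a group was pooled for each gene over all 8 groups. The p-values and SE of that fit therefore do not measure the spread of only the groups compared. For Cntfr the SD of log2 CPM ran from 0.24 (control, 5 d) to 1.30 (Jag antibodies, 7 d). The SE of its antibody difference was nevertheless 0.54 at 5 d and 0.55 at 7 d. The value of 1 marker gene is not reported here.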

Additional observations from a re-analysis of the deposited data

Results flagged for a closer look

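In 3 of 72 combinations of gene and group, 1 mouse lay far from the other 4 by Dixon's criterion (gap over range above 0.71), where chance gives about 1 in 20, or 3.6. Control mouse 5 at 15 h had a Ret level of 2.44 log2 CPM, and the next mouse had 1.97. Control mouse 2 at 7 d had an Ntrk2 level of 8.39 log2 CPM, against 8.12 for the next. Jag antibody mouse 10 at 7 d with hormone had an Ntrk2 level of 8.49 log2 CPM, against 8.10 for the next.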

How the results depend on the processing

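The counts of the 9 genes called with hormone, 6 in control and 3 in Jag antibody mice, stayed within 1.5 times under the 10 alternatives, but not always for the same genes. With length and GC offsets 4 were called in control mice, of which Lifr, Gfra2 and Ret were among the 6 and Ntrk2 was lower. Leaving out single mice gave 5 to 6 and 3 to 4. Lifr, Gfra2 and Ret in control mice, and Lifr and Ret in Jag antibody mice, were called under every alternative and without any single mouse. The antibody counts rest on the values that chose the genes, so they say nothing about stability. Their 5 d count of 3 was 1 with no filter, with the muscle covariate and with only the groups compared (1 to 3 without single mice). The 7 d count of 1 was 0 with no filter, in both limma fits and with only the groups compared (0 to 1). The count of 1 with hormone was 2 under DESeq2, both limma fits, length and GC offsets and only the groups compared (1 to 1), and the 15 h count stayed at 0 (0 to 0).

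For time, the control 5 d count of 4 was 2 with the muscle covariate and with length and GC offsets and 0 with only the groups compared (4 to 5 without single mice). The control 7 d count was 4 (3 to 5). The Jag 5 d count of 1 was 2 under DESeq2, the muscle covariate and only the groups compared, and 0 with no filter and with length and GC offsets (0 to 1). The Jag 7 d count of 0 was 1 with the muscle covariate and with only the groups compared (0 to 0). The cause was not tested.

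Signs turned for genes compared over hormone or time as follows. With length and GC offsets, Ntrk2 with hormone was -0.71 in control and -0.0091 in Jag antibody mice, Cntfr at 5 d in control mice was -0.14 and Osmr at 7 d in Jag antibody mice 0.053. With no filter, Gfra1 at 5 d in control mice was 0.00023 and Ngfr at 5 d in Jag antibody mice 0.045. With the muscle covariate, Ret at 5 d in Jag antibody mice was 0.062. Apart from Ntrk2 in control mice, none of these was called. Leaving out single mice turned the sign of 8 uncalled values, which ranged from -0.17 to 0.67 (Cntfr with hormone, Jag antibodies), -0.85 to 0.076 (Cntfr, control 7 d), -0.55 to 0.11 (Gfra1, control 5 d), -0.057 to 0.24 (Ntrk2, control 5 d), -0.37 to 0.15 (Ngfr, Jag 5 d), -0.073 to 0.48 (Gfra2, Jag 5 d), -0.35 to 0.11 (Osmr, Jag 7 d) and -0.40 to 0.25 (Gfra2, Jag 7 d).

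Mouse numbers are shared between hormone and time groups, but not every pair of same-numbered mice deviated together (mean r 0.0819 to 0.185 over 6 comparisons). In none was every mouse closest to its own number. Some were in each comparison, and most were in Jag antibody mice at 5 d and at 7 d against 15 h. Whether the numbers pair mice cannot be told from this, so the main fit did not pair them. With the replicate block, the counts were 0 and 1 in control mice at 5 d and 7 d, 3 and 1 in Jag antibody mice at 5 d and 7 d, and within 1.5 times for hormone. With the block, and with the block and the offsets, Gfra2 with hormone in Jag antibody mice passed the test (0.92 and 0.91, edgeR adjusted p = 0.0368 and 0.0434). Cntfr with hormone in control mice was past the threshold in both fits (0.89 and 1.08), a description for the reason given above. With the block and the offsets together the counts were 0, 1 and 1 for control 5 d, control 7 d and Jag 7 d. In that combination, which was added for single genes after seeing the data, Ntrk2 with hormone in control mice was -0.69, Cntfr -0.010 at 5 d in control and -0.079 at 7 d in Jag antibody mice, and Osmr 0.18 at 7 d in Jag antibody mice.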
